A study of Mus musculus with 2 samples.

Results

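The cells described here were endothelial cells of healed mouse skin wounds with transcripts of several of 6 markers of capillaries, arteries and sprouts. They were chosen on their transcript counts. A cell with at most 10% of its counts from mitochondrial genes was taken as endothelial when *Pecam1*, *Cdh5* and *Egfl7* together had at least 3 counts and *Pdgfra*, *Sox10* and *Rgs5* together had at most 2. Of these endothelial cells, those with a count in at least 3 of *Rbp7*, *Gpihbp1*, *Gja4*, *Esm1*, *Sox17* and *Cd300lg* were kept, and they are called capillary-arterial cells below. There were 362 such cells among 884 endothelial cells, of 4648 cells that passed the mitochondrial limit and 4680 in the data. The control library gave 286 of them and the *SM22-SmoM2* library 76. The other 522 endothelial cells, 340 and 182, served as the comparison.

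The study sorted Tomato+ cells from the dermis of wounds 3 days after complete re-epithelialization and sequenced them singly, with 1 library per genotype. Control mice carried *SM22rtTA; tetO-Cre; R26-Tomato* and the others *SM22rtTA; tetO-Cre; R26-SmoM2/Tomato*. All mice were 4 to 5 weeks old and received doxycycline from day 1 after wounding, which switches on Cre through the *SM22α* promoter, and Cre then switches on Tomato and, in the second genotype, SmoM2, an always active form of the Hedgehog (Hh) receptor component Smoothened. Each library pooled wounds of several mice. The *SM22α* promoter is that of *Tagln* and is known from smooth muscle and myofibroblasts rather than from endothelium, so the sort decided which endothelial cells were seen, and shares of endothelial cells cannot be read as shares in the wound. *Tagln* itself stood at 114 CPM (counts scaled to a common total) in the control and 90.6 in the *SM22-SmoM2* capillary-arterial cells, against 243 and 209 in all non-endothelial cells.

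Blood leaves the heart through arteries, passes capillaries, where oxygen, lipids and other solutes are exchanged, and returns through venules and veins. The endothelial cells of each stretch differ in their genes. Arterial cells depend on VEGF and Notch signaling and on SOXF factors such as Sox17, and they are coupled by gap junction channels of connexin 37 (*Gja4*) and connexin 40 (*Gja5*). Capillary cells of skin, fat and muscle take up fatty acids, and *Gpihbp1* encodes the protein that carries lipoprotein lipase to their inner surface. *Rbp7*, a retinol-binding protein, and *Cd300lg*, a surface glycoprotein, are known from capillaries, and *Esm1* marks the tip cells that lead new sprouts. Venules express *Ackr1* and *Selp*, through which leukocytes leave the blood.

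A count here is a unique molecular identifier (UMI), that is, 1 captured transcript molecule. UMIs were summed over the cells of a class in a library and divided by the class total to give CPM, the UMIs of a gene in 1000000 UMIs of the class. The control cells held 30208318 UMIs in all and the *SM22-SmoM2* cells 17863317, of which the capillary-arterial cells had 3758215 and 783696. With 1 library per genotype there is no replicate, no test was possible, and no p-value is given. Intervals are 95% and cover counting error only, and take no account of variation among mice or libraries. Differences are log2 ratios of CPM, and a gene was counted as different past 2-fold with at least 50 UMIs over the sums compared, in both libraries where capillary-arterial and other endothelial cells were compared.

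The promoters of 4 genes are shown here: *Gja4* and *Rbp7*, used to choose the cells, and the arterial genes *Gja5* and *Sema3g*, which were not. The levels of *Gja5* and *Sema3g* differed between control cells with and without *Gja4* and between genotypes. Those of *Gja4* and *Rbp7* depend in part on the choice of cells. Each sequence is the 250 bases before the RefSeq start in GRCm38.p6, written 5′ to 3′ on the strand of the gene. Capitals mark matches, on either strand, to ACAAT (the core bound by SOX factors), AGGAAG (ETS factors), TGGGAA (RBPJ, the Notch effector) and CACCC (KLF factors).
Gja4, chr4:127314040-127314289, minus strand: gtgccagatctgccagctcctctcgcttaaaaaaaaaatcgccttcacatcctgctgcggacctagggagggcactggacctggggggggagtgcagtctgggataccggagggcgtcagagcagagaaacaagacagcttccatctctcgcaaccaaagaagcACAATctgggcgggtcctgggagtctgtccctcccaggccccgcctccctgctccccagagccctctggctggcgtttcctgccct
Rbp7, chr4:149454969-149455218, minus strand: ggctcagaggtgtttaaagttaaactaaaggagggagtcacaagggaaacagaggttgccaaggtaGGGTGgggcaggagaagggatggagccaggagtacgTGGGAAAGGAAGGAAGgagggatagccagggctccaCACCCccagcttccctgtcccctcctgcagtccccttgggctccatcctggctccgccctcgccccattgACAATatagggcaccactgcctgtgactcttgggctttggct
Gja5, chr3:97032152-97032401, plus strand: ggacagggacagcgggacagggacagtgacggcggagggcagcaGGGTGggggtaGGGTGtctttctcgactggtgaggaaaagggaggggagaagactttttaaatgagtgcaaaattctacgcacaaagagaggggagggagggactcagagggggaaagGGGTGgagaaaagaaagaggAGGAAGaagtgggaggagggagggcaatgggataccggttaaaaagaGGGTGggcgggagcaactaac
Sema3g, chr14:31217623-31217872, plus strand: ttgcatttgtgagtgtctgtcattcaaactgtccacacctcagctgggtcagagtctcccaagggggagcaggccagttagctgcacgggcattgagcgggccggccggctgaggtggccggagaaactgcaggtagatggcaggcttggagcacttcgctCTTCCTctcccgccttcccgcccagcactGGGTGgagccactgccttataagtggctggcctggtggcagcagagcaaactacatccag
The *Gja4* window held 1 match, ACAAT at -86 from the start. The *Rbp7* window held all 4 motifs, with ACAAT at -42, TGGGAA at -148, AGGAAG at -142 and -138, where the matches overlap each other, and CACCC at -184 and -112. The *Gja5* window held AGGAAG at -68 and 4 CACCC matches, and the *Sema3g* window AGGAAG at -89 and CACCC at -60. Such matches are common: of 32851 RefSeq promoters of the same length, 27.7% held ACAAT, 29.5% AGGAAG, 21.6% TGGGAA and 52.0% CACCC. They describe the letters only and show no binding. On GRCm38 in the GENCODE annotation *Gja4* spans chr4:127311421-127314039, *Rbp7* chr4:149449687-149454978, *Gpihbp1* chr15:75596628-75599481, *Esm1* chr13:113209659-113218098, *Sox17* chr1:4490931-4497354 and *Cd300lg* chr11:102041509-102055620. RefSeq promoters were found for 3 of the 6 genes used to choose the cells. The *Gja5* window lies inside the longer *Gja5* gene of the GENCODE annotation, and the RefSeq starts of *Rbp7* and *Sema3g* lie a few bases inside the GENCODE genes.

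The levels of the 6 markers describe the choice of cells and are no finding. *Gpihbp1* was detected in 259 of 286 control and 68 of 76 *SM22-SmoM2* cells, at 486 and 501 CPM, against 114 and 60.7 CPM in other endothelial cells. *Sox17*, the arterial transcription factor, was detected in 249 and 69 cells and *Cd300lg* in 247 and 65. *Rbp7* was detected in 204 and 44 cells, at 422 and 189 CPM. *Gja4* was found in 99 and 20 cells, at 221 and 98.3 CPM, and was close to absent from the other endothelial cells, with 3 UMIs in the control and 0 in the *SM22-SmoM2* library. *Esm1* was detected in 57 and 23 cells, at 51.1 and 66.4 CPM. Most of the cells were thus chosen through *Gpihbp1*, *Sox17* and *Cd300lg*, and the arterial *Gja4* was present in 34.6% of control and 26.3% of *SM22-SmoM2* cells.

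**Figure D1:**
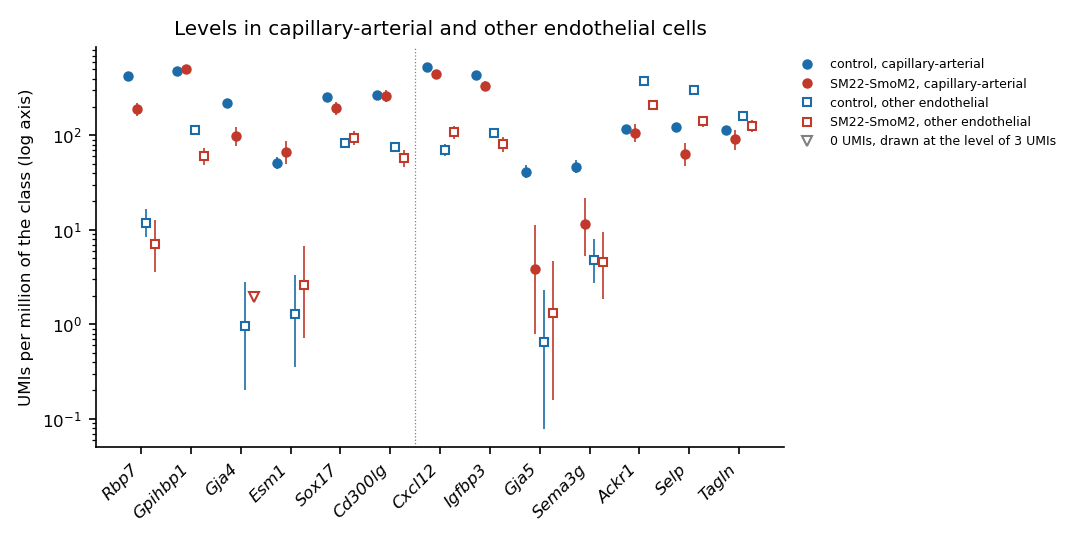
Levels in CPM (log axis) of the 6 markers used to choose the cells and of other genes, in capillary-arterial and other endothelial cells of both libraries, with exact 95% Poisson intervals. The dotted line separates the 6 markers from the other genes, and an open triangle stands for 0 UMIs, drawn at the level of 3 UMIs. *Gja4* stood at 221 and 98.3 CPM in the capillary-arterial cells and at 0.97 CPM and 0 UMIs in the other endothelial cells.

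Fibroblasts, which should lack these genes, gave an estimate of the background from free RNA in the droplets. They were cells outside the endothelial gate with at most 2 UMIs of *Pecam1*, *Cdh5* and *Egfl7* together. Droplets with more free endothelial RNA were thus left out, so the shares can understate this background. After every cell was thinned to 3000 UMIs, *Cd300lg* was detected in 0.368% and 0.958% of cells with at least 2 *Pdgfra* UMIs, the receptor gene that marks dermal fibroblasts, and each of the other 5 markers in at most 0.735%. Those cells were deeper, with a median of 14014 and 12052 UMIs. At the same thinned depth, *Gpihbp1* was detected in 64.3% of control capillary-arterial cells and *Esm1* in 9.44%. *Tagln* was detected in 16.4% of control capillary-arterial cells and 18.4% of control *Pdgfra* cells, and in 12 of 75 against 90 of 313 such cells (28.8%) of the *SM22-SmoM2* library.

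The cut at 3 markers runs through a continuum. In the control library 79 endothelial cells had none of the 6 markers, 119 had 1, 142 had 2, 116 had 3, 99 had 4, 55 had 5 and 16 had all 6. In the *SM22-SmoM2* library the numbers were 69, 63, 50, 39, 19, 12 and 6. No gap separated the cells just outside from those just inside the cut. Cells with 2 markers had *Gpihbp1* at 208 CPM in the control and 132 in the *SM22-SmoM2* library, and cells with 3 had it at 377 and 322. *Gja4* went from 1.48 to 83.4 CPM across the cut in the control and from 0 UMIs to 5.32 CPM in the *SM22-SmoM2* library.

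**Figure D2:**
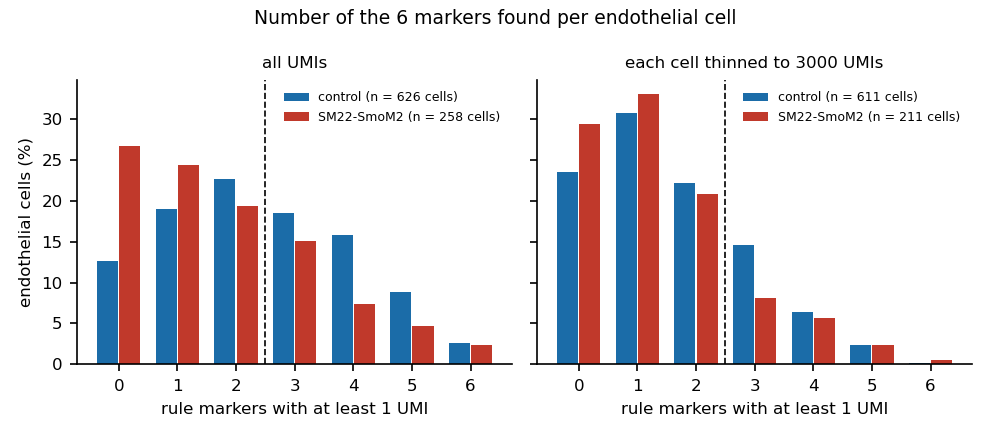
Share of endothelial cells (percent) by the number of the 6 markers detected, for both libraries, at full depth and with every cell thinned to 3000 UMIs. The dashed line marks the 3 markers a cell needed. In neither library is there a gap at the line, and 22.7% of control and 19.4% of *SM22-SmoM2* endothelial cells had 2 markers at full depth.

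Capillary-arterial cells made up 45.7% of control endothelial cells (41.7 to 49.7, exact binomial interval) and 29.5% of *SM22-SmoM2* endothelial cells (24.0 to 35.4). Endothelial cells were themselves 21.9% of the control and 14.4% of the *SM22-SmoM2* cells. Depth moves with these shares, since a deeper cell shows more markers. The capillary-arterial cells had a median of 12010.5 and 8639 UMIs, the other endothelial cells 7156 and 6301. With every cell thinned to 3000 UMIs before the choice, the shares were 23.4% (20.1 to 27.0) and 16.6% (11.8 to 22.3). The share was lower in the *SM22-SmoM2* library both ways. At equal depth both shares were lower, their difference in percentage points was smaller, and the intervals overlapped.

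Some cells passed the gate with transcripts of a second cell type or of lymphatic endothelium. A cell was called mixed when genes of any 1 of 7 lists (lymphatic, mural, fibroblast, Schwann, immune, keratinocyte or red blood cell) exceeded 1% of its UMIs. By this criterion, set after the values had been seen, 7 control and 3 *SM22-SmoM2* capillary-arterial cells were mixed, 2.45% and 3.95%, against 11.8% and 22.5% of other endothelial cells. The mixed capillary-arterial cells carried fibroblast genes in 3 and 2 cells, immune genes in 2 and 1, and lymphatic genes in 2 control cells. The 10 fibroblast genes, all detected, summed to 1493 and 2026 CPM in capillary-arterial cells and to 13644 and 15636 CPM in other endothelial cells. The lymphatic chemokine *Ccl21a* had 5405 UMIs in control capillary-arterial cells, of which 5391 lay in 2 cells, and 0 in the *SM22-SmoM2* library. Without mixed cells the shares of capillary-arterial cells were 48.2% and 34.1%. Counts of genes past 2-fold are therefore given below with and without mixed cells. Transcripts of both sexes were found in 23 and 3 capillary-arterial cells, and the doublet caller Scrublet marked 2 and 1. Among capillary-arterial cells with sex-linked transcripts 70.6% were male in the control and 64.3% in the *SM22-SmoM2* library. The cell barcodes shared by the libraries could not be counted, because the barcodes were not tied to cells.

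The 20 general endothelial genes tested, which include the 3 genes of the gate, were moderately higher in capillary-arterial cells than in the others, with a median log2 ratio of 0.54 in the control and 0.71 in the *SM22-SmoM2* library. None was past 2-fold in both libraries. Without mixed cells the medians were 0.29 and 0.19, against medians over all genes of 0.04 and 0.06. *Plvap*, an endothelial gene of permeable vessels that the gate did not use, was detected in 278 of 286 and 75 of 76 capillary-arterial cells, at 1784 and 1917 CPM. The 12 mural cell genes summed to 295 and 272 CPM, and the 5 red blood cell genes to 2.66 CPM and 0 UMIs. The name of the cells is that of the markers that chose them, since venous genes were present too: *Ackr1* was detected in 81 and 16 capillary-arterial cells.

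Arterial genes were in part higher than in the other endothelial cells. Over all 9768 genes tested, 103 (1.05%) were at least 2-fold higher in capillary-arterial cells in both libraries and 393 (4.02%) were 2-fold lower. Of the 19 arterial genes tested of 20 listed, 7 were 2-fold higher and 0 lower, with medians of 1.05 and 0.98, against 0.03 and 0.07 over all genes. Without mixed cells 5 of 19 were 2-fold higher, beside 68 of 9047 genes (0.752%) higher and 42 (0.464%) lower, and the medians were 0.84 and 0.43. *Sox17* and *Gja4* belong to the choice of cells and not to this list.

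*Cxcl12*, the chemokine of arterial endothelium, stood at 523 against 70.3 CPM in the control (log2 ratio 2.897, 2.69 to 3.11) and 444 against 108 CPM in the *SM22-SmoM2* library (2.03, 1.76 to 2.31). *Notch4*, the endothelial Notch receptor, stood at 50.02 against 5.505 CPM and 42.1 against 13.7 CPM. *Igfbp3*, which binds insulin-like growth factors, stood at 439 against 107 CPM and 336 against 81.0 CPM. These 3 genes, with *Unc5b* (a netrin receptor) and *Depp1*, were past 2-fold in both libraries with and without mixed cells. *Efnb2*, the arterial ephrin ligand, and *Sema3g*, a secreted semaphorin, were past it in both libraries only with all cells counted. Their mean log2 ratios of both libraries changed little without mixed cells, from 1.42 to 1.31 for *Efnb2* and from 2.30 to 2.33 for *Sema3g*.

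*Gja5*, the connexin most confined to arteries, was nearly restricted to these cells within the endothelium. It had 156 UMIs in 37 control capillary-arterial cells and 2 UMIs in the other control endothelial cells (log2 ratio 6.002, 4.13 to 9.06). In the *SM22-SmoM2* library it had 3 and 2 UMIs, too few for a ratio. *Bmx*, an arterial kinase, behaved alike in the control, with 18.1 against 2.59 CPM, but not in the *SM22-SmoM2* library, with 7.66 against 6.53 CPM. *Dll4*, the arterial Notch ligand, stood at 98.7 against 49.9 CPM and 67.6 against 32.6 CPM, while the receptor gene *Notch1* differed little, with log2 ratios of 0.40 and 0.33.

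Capillary and sprouting genes were higher in part. Of 16 capillary genes tested, 4 were 2-fold higher and 1 lower, beside 1.05% and 4.02% of all genes. The medians were 0.53 and 0.69, close to those of the general endothelial genes. Without mixed cells 3 of 14 were higher and 0 lower, beside 0.752% and 0.464% of all genes. The medians were then 0.54 and 0.31, and *Rgcc* and *Lpl* were no longer past 2-fold. *Cd36*, the fatty acid transporter, stood at 244 against 99.7 CPM and 157 against 38.5 CPM. *Ly6c1*, a surface protein of capillary and arterial cells, was the most abundant of the 4, at 2099 against 747 CPM and 2142 against 729 CPM. *Rgcc* was at 801 against 390 CPM and 921 against 306 CPM, and *Cxcl12* is also on this list. With cells thinned to 3000 UMIs before the choice, the mean log2 ratio of both libraries was 0.83 for *Cd36* and 0.83 for *Rgcc*. *Fabp4*, the fatty acid-binding protein, and the water channel gene *Aqp1* did not separate the classes, with log2 ratios of 0.11 and 0.48 for *Fabp4* and -0.19 and 0.22 for *Aqp1*.

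Fatty acid genes as a group did not follow *Gpihbp1* and *Cd36*. Of 18 tested, *Cd36* was 2-fold higher beside *Gpihbp1*, whose level the choice of cells fixed, and the medians were 0.05 and 0.20. *Lpl* and the transporter gene *Slc27a1* were 2-fold lower with all cells, beside 4.02% of all genes, and 0 of 16 were without mixed cells. *Lpl*, which encodes the lipase that Gpihbp1 binds, had 18 and 3 UMIs in capillary-arterial cells. It stood at 39.2 and 43.1 CPM in the other endothelial cells, and at 7.02 and 4.26 CPM there without mixed cells.

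Of 19 tip and sprouting genes, 5 were 2-fold higher in both libraries and 0 lower, beside 1.05% and 4.02% of all genes. The medians were 0.62 and 0.89. The 5 were *Pdgfb* (which recruits pericytes), *Unc5b*, *Flt4*, *Igfbp3* and *Ednrb*, and *Unc5b* and *Igfbp3* are on the arterial list too. Without mixed cells those 2 were higher and *Angpt2* was lower, beside 0.752% and 0.464% of all genes, with medians of 0.36 and 0.51. *Apln*, the peptide made by sprouting cells, stood at 174 against 114 CPM in the control and 157 against 38.5 CPM in the *SM22-SmoM2* library. *Angpt2*, the angiopoietin of activated sprouts, went the other way, with 36.7 against 70.3 CPM and 34.5 against 53.5 CPM.

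Venous genes were lower in part. Of 19 tested, 0 were 2-fold higher and 4 lower, *Selp*, *Csf3*, *Tll1* and *Ctsh*, beside 1.05% and 4.02% of all genes. The median was -0.55 in each library. Without mixed cells 5 were 2-fold lower, *Ackr1*, *Selp*, *Csf3*, *Tll1* and *Cpe*, beside 0.464% of all genes. The medians were then -0.71 and -0.92. *Csf3* had a mean log2 ratio of both libraries of -1.45, which was -0.12 with at least 2 markers, -2.36 with at least 4 and -3.80 thinned to 3000 UMIs. That of *Tll1*, -1.35, was -0.63 with at least 2 markers, -0.16 with cells chosen on a random 50% of the UMIs and -2.31 thinned. *Ackr1*, the chemokine receptor of venules, stood at 118 against 373 CPM in the control and 107 against 208 CPM in the *SM22-SmoM2* library, so it was reduced but present. *Selp* (P-selectin) stood at 122 against 302 CPM and 63.8 against 141 CPM. Its mean log2 ratio of both libraries, -1.23, was -0.47 with at least 2 markers, -0.61 with cells chosen on a random 50% of the UMIs and -0.83 in male cells. Larger differences were found with at least 4 markers (-2.55), with cells thinned to 3000 UMIs (-3.64), with a gate of 5 UMIs (-1.57) and without mixed cells (-1.61). *Nr2f2*, the venous transcription factor gene, had log2 ratios of -0.41 and -0.93, while *Vwf* (0.05 and 0.32) and *Aplnr* (-0.05 and 0.31) were close to even.

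**Figure D3:**
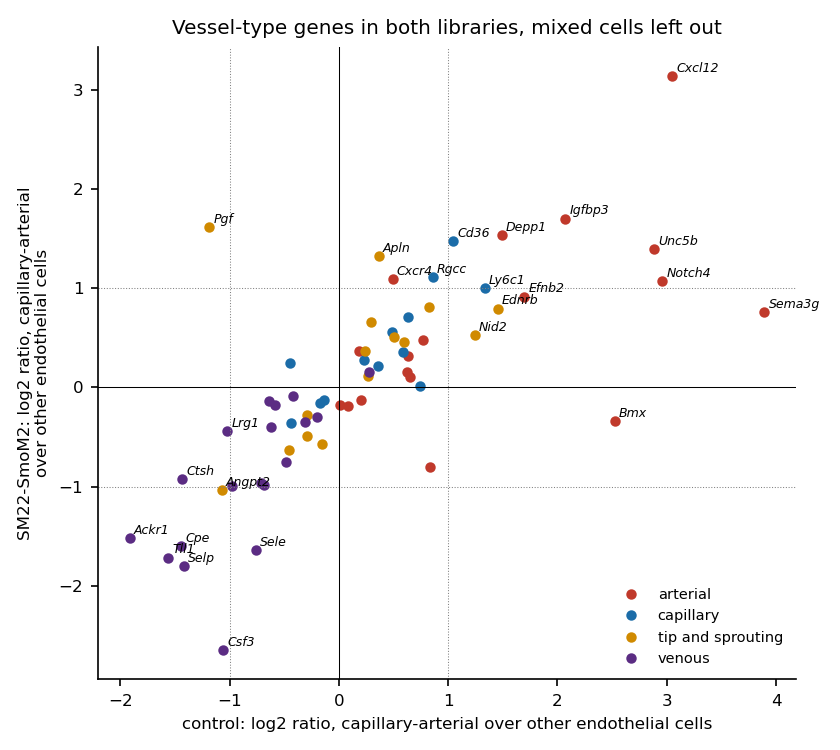
Log2 ratio of CPM in capillary-arterial over other endothelial cells for genes of the arterial, capillary, sprouting and venous lists with at least 50 UMIs, control on the horizontal and *SM22-SmoM2* on the vertical axis, mixed cells left out. Dotted lines mark 2-fold, a gene on more than 1 list has the colour of the first, and genes with at most 3 UMIs in both classes are not drawn. Arterial genes lie mostly to the right, with medians of 0.84 and 0.43, and venous genes mostly in the lower left, with medians of -0.71 and -0.92.

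The other endothelial lists held genes in both directions. For comparison, 1.05% of all genes were 2-fold higher and 4.02% lower, and without mixed cells 0.752% and 0.464%. Of 17 Notch pathway genes tested, *Notch4* and the ligand gene *Jag2* were 2-fold higher and *Notch2* and the target gene *Heyl* 2-fold lower, with medians of 0.20 and 0.28. Without mixed cells *Notch4* was higher and 0 of 15 were lower. The target gene *Hes1* was abundant and even, at 1325 against 1255 CPM and 1735 against 1995 CPM. Of 18 SOX, ETS and related factors, *Sox17*, which chose the cells, and *Lmo2* were 2-fold higher, with medians of 0.57 and 0.66. Of 14 genes that respond to blood flow, *Gja4*, another marker that chose the cells, was 2-fold higher and *Pi16* lower, and *Klf2*, the flow-induced factor, had log2 ratios of 0.50 and 0.94. Of 14 leukocyte adhesion genes 0 were 2-fold higher and 4 lower, *Selp*, *Ccl2*, *Cxcl1* and *Csf3*, beside 4.02% of all genes lower. Without mixed cells *Selp* and *Csf3* were still 2-fold lower, and *Sox17*, *Lmo2* and *Pi16* were not past 2-fold.

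The genes highest in capillary-arterial cells by a fixed rule, taking the smaller of both libraries' ratios, were led by *Magix*, a PDZ protein gene of the X chromosome, at 35.1 against 3.56 CPM and 30.6 against 3.92 CPM. *Clic5*, a chloride channel protein gene, stood at 19.2 against 2.59 CPM and 24.2 against 1.31 CPM. *Prom1*, the membrane protein CD133, stood at 30.3 against 3.56 CPM and 19.1 against 3.26 CPM. *Car7*, a carbonic anhydrase, was uneven between libraries, with 124 and 6 UMIs in capillary-arterial cells and 2 and 0 in the others. *Col13a1*, a membrane collagen, *Lrat*, which makes retinyl esters, and *Podxl*, a sialomucin of the luminal surface, followed *Cxcl12* and *Igfbp3*, and *Podxl* stood at 174 against 55.0 CPM and 121 against 39.2 CPM. Without mixed cells the ranking was led by *Cxcl12*, *Lgals3bp* and *Magix*, and *Clic5*, *Podxl* and *Notch4* were not among its 15 genes. All 15 ranked genes were higher in both libraries, which the rule itself required.

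The 10 lowest genes were *Cldn1*, *Gxylt2*, *Apod*, *Tmem119*, *Dcn*, *Fbln1*, *Spon2*, *Cygb*, *Sdc2* and *Gpc3*. Their relation to the fibroblast transcripts in the other endothelial cells was not tested. *Dcn*, the fibroblast proteoglycan decorin, stood at 96.1 against 1406 CPM and 116 against 1835 CPM. Without mixed cells it stood at 54.8 against 71.1 CPM and 53.3 against 71.3 CPM. All 10 genes of the fibroblast list were 2-fold lower with all cells and 0 of 8 tested without mixed cells. Genes of this list, *Dcn* among them, helped to decide which cells were called mixed. The smaller differences of these genes without mixed cells thus follow from that criterion and are no finding. Without mixed cells the lowest genes were *Vcan*, *Cadm3*, *Cd44*, *Ackr1*, *Cpe*, *Selp*, *Cysltr1*, *Pcdh7*, *Thbs1* and *Mt1*.

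The capillary-arterial cells were not uniform, and arterial and venous genes differed between those with and without *Gja4*. Mixed cells are left out here. In the control library 95 cells had *Gja4* and 184 did not, with a median of 11886 and 12010.5 UMIs. In the *SM22-SmoM2* library 20 had it and 53 did not, with 8700 and 8468 UMIs, so depth was alike on both sides. Since *Gja4* is one of the genes that chose the cells and every gene comes from the same cells, the split is a description. It was chosen after the values had been seen. A split fixed earlier, by *Gja4* or *Sox17*, left only 26 and 6 cells without either gene and gave arterial medians of 1.23 and 0.48.

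Arterial genes followed *Gja4*. In the control 14 of 19 arterial genes with at least 20 UMIs were 2-fold higher in cells with *Gja4* and 0 lower, with a median of 1.65, and in the *SM22-SmoM2* library 9 of 15 were, with a median of 1.20. Over all genes with at least 20 UMIs, 3.5% and 4.19% were 2-fold higher in these cells and 4.52% and 4.89% lower. *Gja5* stood at 120 CPM in control cells with *Gja4* and 1.72 CPM in those without. *Sema3g* stood at 129 and 5.602 CPM in the same cells, and *Npr3*, the natriuretic peptide clearance receptor, at 40.5 and 1.29 CPM. *Unc5b* was split alike in both libraries, at 92.9 against 10.8 CPM in the control and 95.2 against 7.96 CPM in the *SM22-SmoM2* library. *Cxcl12* stood at 1067 against 257 CPM and 1199 against 179 CPM, and *Igfbp3* at 931 against 202 CPM and 928 against 123 CPM. *Rbp7* went with *Gja4*, at 873 against 199 CPM and 347 against 139 CPM.

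Capillary genes differed less. The medians of the capillary list were 0.18 and 0.05. In cells with *Gja4* 2 of 16 and 1 of 13 genes were 2-fold higher, beside 3.5% and 4.19% of all genes, and 0 lower. *Cd36* had log2 ratios of 0.15 and 0.13. Since a cell without *Gja4* needed 3 of the other 5 markers, the levels of those markers on either side depend on the choice. *Gpihbp1* stood at 471 CPM with and 524 CPM without *Gja4* in the control, and at 576 and 517 CPM in the *SM22-SmoM2* library. The medians of the sprouting list were 0.19 and -0.02. *Apln* was lower with *Gja4*, at 95.3 against 231 CPM and 76.1 against 191 CPM.

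Venous genes in the control were lower in the cells with *Gja4*. In the control 13 of 18 venous genes were 2-fold lower in cells with *Gja4*, beside 4.52% of all genes, with a median of -1.37. In the *SM22-SmoM2* library 1 of 13 was, beside 4.89% of all genes, with a median of -0.48. *Ackr1* stood at 19.9 against 179 CPM in the control. In the *SM22-SmoM2* library it stood at 71.4 against 131 CPM, where all 15 UMIs of cells with *Gja4* came from 1 cell. *Selp* stood at 19.1 against 187 CPM and 23.8 against 81.5 CPM. *Lrg1*, a glycoprotein of venules and inflamed endothelium, was split in the control, at 221 against 869 CPM, and even in the *SM22-SmoM2* library, at 1089 against 1096 CPM.

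**Figure D4:**
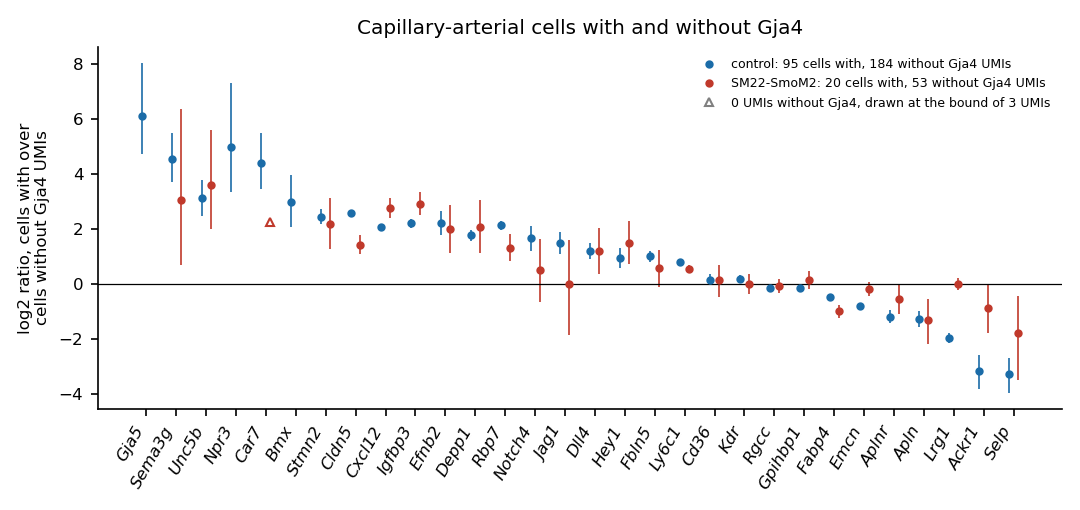
Log2 ratio of CPM in capillary-arterial cells with over those without *Gja4* UMIs for named genes, control in blue and *SM22-SmoM2* in red, mixed cells left out. Bars are exact 95% intervals, the open triangle is a lower bound for a gene with 0 UMIs in cells without *Gja4*, and no point is drawn where both sums were at most 3 UMIs or the gene was not compared. *Gja5* lies highest in the control at 6.12, *Gpihbp1* lies near 0 in both libraries, and *Selp* lies lowest at -3.29 in the control.

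*Esm1* was detected with and without *Gja4*, and since both markers chose the cells, how often they were detected together depends in part on the choice. In the control 57 capillary-arterial cells had it, and 27 of these (47.4%) also had *Gja4*. In the *SM22-SmoM2* library 23 had it, and 13 of these (56.5%) also had *Gja4*. Read the other way, 27 of 99 control cells with *Gja4* (27.3%) and 13 of 20 *SM22-SmoM2* cells with *Gja4* had *Esm1*. Without mixed cells, *Nid2*, a basement membrane nidogen of sprouts, stood at 126 CPM with and 61.8 CPM without *Esm1* in the control, and at 109 and 19.0 CPM in the *SM22-SmoM2* library. *Rgcc* stood at 1535 against 634 CPM and 1287 against 754 CPM. *Fabp4* was lower in cells with *Esm1*, at 1363 against 3506 CPM and 727 against 1835 CPM. Of the sprouting genes with at least 20 UMIs, 2 of 19 in the control and 7 of 17 in the *SM22-SmoM2* library were 2-fold higher with *Esm1*, beside 1.4% and 3.39% of all genes. Arterial genes were so in 1 of 19 and 7 of 15, with medians of 0.26 and 0.84, against 0.44 and 0.74 for the sprouting genes. Venous genes were 2-fold lower in 8 of 18 and 5 of 13, beside 5.03% and 5.35% of all genes.

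The comparison of *SM22-SmoM2* with control asks how the capillary-arterial cells differed where SmoM2 was switched on in the sorted lineage. Of 7803 genes with at least 50 UMIs, 83 (1.06%) were 2-fold higher and 265 (3.4%) 2-fold lower in *SM22-SmoM2* than in control capillary-arterial cells. Without mixed cells 70 of 7607 (0.92%) were higher and 286 (3.76%) lower. The median over all genes was -0.08, so ratios near that value mean no difference relative to other genes. In 7 of the 83 higher genes at least 50% of the *SM22-SmoM2* UMIs lay in 1 cell, and in 8 of the 265 lower genes at least 50% of the control UMIs did. In the other endothelial cells 55 of the 83 and 172 of the 265 had the same sign, and 19 and 49 were also past 2-fold there. The matching shares over all genes are not given, so these counts do not show whether the overlap was unusual.

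A part of the arterial genes was lower in *SM22-SmoM2* cells. Of 19 tested, 0 were 2-fold higher and 6 lower, *Gja5*, *Bmx*, *Sema3g*, *Jag1*, *Depp1* and *Stmn2*, beside 1.06% and 3.4% of all genes. The median was -0.39 against -0.17 in the other endothelial cells. Without mixed cells 6 were lower, beside 3.76% of all genes, with medians of -0.34 and 0.11. *Gja5* differed most among these 6, with 156 UMIs in 37 of 286 control cells and 3 UMIs in 3 of 76 *SM22-SmoM2* cells (log2 ratio -3.44, -5.73 to -1.86). *Sema3g* had 176 UMIs in 62 control cells and 9 UMIs in 7 *SM22-SmoM2* cells (-2.03, -3.18 to -1.07). The Notch ligand gene *Jag1* stood at 62.3 and 24.2 CPM (-1.36, -2.12 to -0.69), and *Stmn2* at 186 and 62.5 CPM. Some of these differences depended on how the cells were chosen. With at least 2 markers the ratio of *Jag1* was -0.48 and that of *Bmx* -0.46, and with cells chosen on a random 50% of the UMIs *Sema3g* was at -0.89 and *Bmx* at -0.38. *Bmx* rested on 68 and 6 UMIs, with an upper bound of -0.04 and, without mixed cells, of 0.02.

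Some other arterial genes differed less between the libraries, and the median over the 19 tested was -0.39. *Cxcl12* had a log2 ratio of -0.24 (-0.41 to -0.07), *Igfbp3* -0.39, *Notch4* -0.25, *Efnb2* 0.13 and *Hey1* 0.03, whose interval was -0.38 to 0.42. *Dll4* was at -0.38 in cells with *Gja4* and -0.39 in those without, mixed cells left out. The levels of the markers that chose the cells depend on that choice, so their ratios are no finding. *Rbp7* (-1.16) and *Gja4* (-1.17) were lower, though with at least 4 markers they were at -0.85 and -0.65. With the mean of CPM per cell they were at -1.19 and -0.65. *Sox17* stood at 257 and 194 CPM, and *Gpihbp1* (0.05), *Cd300lg* (-0.04) and *Esm1* (0.38, -0.09 to 0.83) were not lower. *Ly6c1* was even, at 0.03 (-0.05 to 0.11).

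*Cldn5*, the tight junction claudin of endothelium, and *Fabp4* were lower as well. In capillary-arterial cells *Cldn5* stood at 1084 CPM in the control against 351 CPM (-1.63, -1.81 to -1.45), and its ratio in the other endothelial cells was -0.39. Without mixed cells these ratios were -1.44 and 0.02. *Fabp4* stood at 2929 and 1425 CPM (-1.04, -1.13 to -0.95), and was lower in the other endothelial cells too, at -1.40. With a mitochondrial limit of 5% its ratio in capillary-arterial cells was -0.999 and with median-of-ratios scaling -0.99, just under 2-fold. It was -1.77 with cells thinned to 3000 UMIs and -1.37 with at least 4 markers. With the mean of CPM per cell it was -1.35, and with 0 UMIs of *Pdgfra*, *Sox10* and *Rgs5* -1.24. *Depp1*, a gene induced by FOXO factors, was likewise lower in both, at -2.06 and -2.21. The differences of *Cldn5* between the classes of endothelial cells were not tested.

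*Gja5*, *Jag1*, *Sema3g* and *Depp1* were also lower among cells with *Gja4*, mixed cells left out, where the numbers were 95 control and 20 *SM22-SmoM2* cells. These cells were not matched in the level of *Gja4*, which stood at 638 CPM in the control and 366 CPM in the *SM22-SmoM2* library (-0.80, -1.16 to -0.46). *Gja5* had 151 and 2 UMIs there (-3.66, -6.71 to -1.78), *Jag1* a log2 ratio of -2.21, *Sema3g* -1.96, *Depp1* -1.77, *Cldn5* -1.71 and *Fabp4* -1.50. In the same cells *Unc5b* (0.03), *Igfbp3* (-0.01) and *Cxcl12* (0.17) were even. In the cells without *Gja4*, *Igfbp3* was at -0.71 (-1.12 to -0.33) and *Cxcl12* at -0.52 (-0.86 to -0.20). Among the cells with *Gja4*, *Lrg1* was higher in the *SM22-SmoM2* library, at 221 and 1089 CPM (2.30, 2.04 to 2.56). *Esm1*, itself a marker that chose the cells, stood there at 69.9 and 171 CPM (1.29, 0.69 to 1.87), with 16 of its 36 *SM22-SmoM2* UMIs in 1 cell. In cells without *Gja4* the ratio of *Lrg1* was 0.33 (0.20 to 0.47). Over all capillary-arterial cells *Lrg1* stood at 615 and 1057 CPM (0.78, 0.67 to 0.90).

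**Figure D5:**
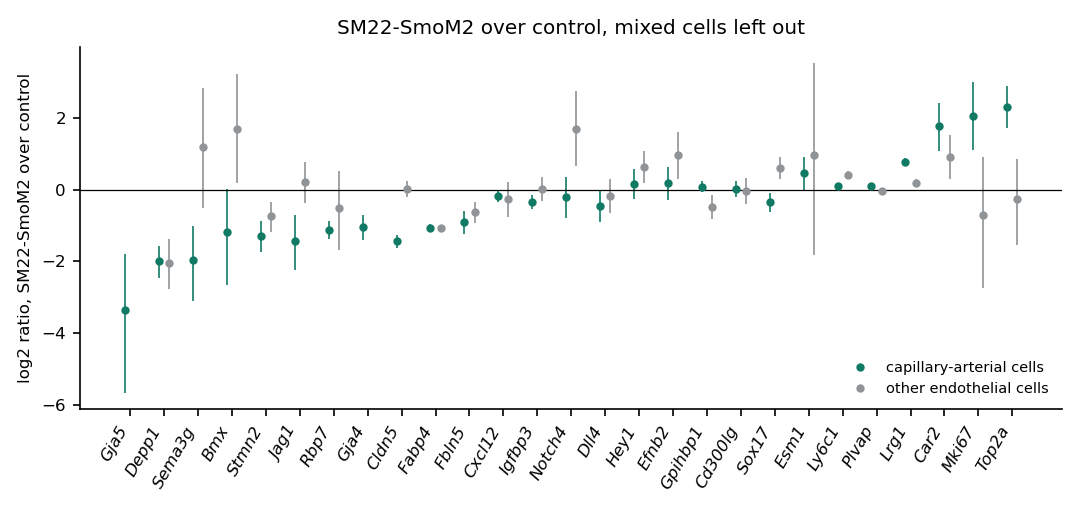
Log2 ratio of CPM in *SM22-SmoM2* over control for named genes, in capillary-arterial cells (green) and other endothelial cells (grey), mixed cells left out, with exact 95% intervals. Values below 0 are lower in the *SM22-SmoM2* library. In capillary-arterial cells *Gja5* (-3.36) and *Cldn5* (-1.44) lie below 0, *Cxcl12* (-0.18) and *Ly6c1* (0.09) lie near it, and *Car2* (1.76) lies above.

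Hh target genes were low in the capillary-arterial cells of both libraries. *Gli1*, *Ptch1* and *Hhip*, which the pathway induces, summed to 17.0 CPM (13.1 to 21.7) in the control and 24.2 CPM (14.6 to 37.9) in the *SM22-SmoM2* library, from 64 and 19 UMIs, and *Hhip* had 0 UMIs in both. Their log2 ratio was 0.51 (-0.31 to 1.27) and, without mixed cells, -0.21 (-1.34 to 0.77). In the other endothelial cells the sum was 17.5 and 183 CPM, a ratio of 3.39, which was 1.27 (0.47 to 2.06) without mixed cells. In the non-endothelial cells it was 16.0 and 163 CPM (3.35). The interval in capillary-arterial cells thus lies below the ratio of the non-endothelial cells sorted with them. *Smo*, whose counts may or may not include the SmoM2 transcript, stood at 18.9 and 16.6 CPM. *Dhh*, a Hh ligand gene, stood at 15.4 and 7.66 CPM.

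The higher genes included cell cycle genes and some that rested on single cells. *Car2*, a carbonic anhydrase, stood at 13.3 and 45.9 CPM in 36 and 18 cells. *Rnaset2a*, *Gm8797* and *Gm10036*, whose counts are uncertain because near-identical copies can share their reads, had ratios of 1.83, 1.74 and 1.59 in capillary-arterial cells and of 1.13, 1.72 and 1.40 in the non-endothelial cells. The fibroblast gene *Ccdc80* (2.58) had 38 of its 56 *SM22-SmoM2* UMIs in 1 cell, the macrophage lysozyme *Lyz2* (2.29) 46 of 49, and the chemokine *Cxcl2* (1.57) 90 of 132.

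Of 10 cell cycle genes tested, 7 were 2-fold higher in *SM22-SmoM2* capillary-arterial cells, beside 1.06% of all genes. They were *Top2a*, *Cdk1*, *Birc5*, *Ube2c*, *Cenpf*, *Mcm5* and *Rrm2*. The median of the list was 1.18 against 0.06 in the other endothelial cells. Without mixed cells 7 of 9 were 2-fold higher, beside 0.92% of all genes. The counts of these genes came from few cells. *Top2a* was detected in 25 control and 10 *SM22-SmoM2* cells, and 25 of its 53 *SM22-SmoM2* UMIs lay in 1 cell. With cells thinned to 3000 UMIs, 10 of 286 control cells (3.50%, 1.69 to 6.34) and 6 of 75 *SM22-SmoM2* cells (8%, 2.99 to 16.6) had at least 3 of the 12 listed genes, and 12.9% and 18.4% did at full depth. In the other endothelial cells 9 of 340 (2.65%, 1.22 to 4.97) and 9 of 173 (5.20%, 2.41 to 9.65) did after thinning. At full depth 9.12% and 9.34% of them did. These shares rest on few cells, 10 and 6 of the capillary-arterial cells, and their differences were not tested.

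The lowest genes in *SM22-SmoM2* cells by rank were led by lymphatic genes of 2 mixed control cells, *Ccl21a*, *Lyve1*, *Mmrn1* and *Reln*, with *Prox1* further down, and *Dct*, a melanocyte gene, had all 62 UMIs in 1 control cell. Schwann cell genes summed to 54.8 and 7.66 CPM in capillary-arterial cells and to 143 and 31.3 CPM in other endothelial cells, and their part in these results was not tested. *Gja5* and *Depp1* were the arterial genes in this ranking.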

How the data were processed

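Tomato+ cells of 2 libraries, 1 per genotype, were read from the deposited matrices, which hold raw UMI counts per gene and cell that the authors made with Cell Ranger on mm10. The version and annotation were not given in the sources used here. The rows name 27998 genes, and of 56 duplicated symbols the first row was used. Cell barcodes were not used. Filters, classes, CPM and exact intervals (Poisson, Clopper-Pearson, conditional for ratios) were computed with Python 3.11.15, numpy 2.4.6 and scipy 1.17.1. A sum of 0 was replaced by 3 UMIs in ratios, and no ratio was formed where both sums were at most 3. Scrublet was run in scanpy 1.11.5 and removed no cell, and sums rescaled by TMM (edgeR 4.0.16) were an alternative with no test. The computations were tested on simulated data. The capillary-arterial cells and all gene lists were chosen with earlier results of these data known. Named genes were those of the lists, the 15 highest and 10 lowest against other endothelial cells by the smaller ratio of both libraries (at least 100 UMIs), and the 12 highest and lowest between genotypes by the interval bound nearest 0, mitochondrial and ribosomal protein genes, the 6 markers, *Xist* and 4 Y-linked genes left out. *Npr3* was named after its values were seen. Alternatives changed the gate, the number of markers, the depth, the count minimum, the scaling and the sex of the cells. Some genes that met this rule are not reported here.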

Additional observations from a re-analysis of the deposited data

Results flagged for a closer look

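The ratio of *SM22-SmoM2* to control had opposite signs in capillary-arterial and other endothelial cells for *Mmrn1* and *Lyz2*, and the difference was not tested. *Mmrn1*, a lymphatic endothelial gene, had a log2 ratio of -3.26 in capillary-arterial cells and 1.92 in the others, and 137 of its 138 control UMIs in capillary-arterial cells lay in 2 cells. *Lyz2*, the macrophage lysozyme, had a ratio of 2.29 in capillary-arterial cells, with 46 of 49 *SM22-SmoM2* UMIs in 1 cell, and -5.08 in the others, with 340 and 5 UMIs.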

How the results depend on the processing

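Intervals cover counting error only, and the 76 *SM22-SmoM2* cells limit what could be detected. Genes under 50 UMIs were therefore left out of the main counts of genes past 2-fold. The splits by *Gja4* and *Esm1* used at least 20 UMIs. No paired analysis was possible because each group has 1 library, and no replicate could be left out. The share of capillary-arterial cells (45.7% and 29.5%) was lower in the *SM22-SmoM2* library under every alternative run. It was 68.4% and 48.8% with at least 2 markers, 27.2% and 14.3% with at least 4, and 23.4% and 16.6% with cells thinned to 3000 UMIs. In the control it was 51.3% with cells chosen on a random 50% of the UMIs and 50.3% in male cells. Genes higher than in other endothelial cells numbered 64 with 0 UMIs of *Pdgfra*, *Sox10* and *Rgs5* allowed, 170 with 2 markers, 46 with at least 200 UMIs and 68 without mixed cells, against 103. Lower genes numbered 180 with 0 UMIs of these genes, 157 with 200 UMIs, 42 without mixed cells, 119 with a gate of 5 UMIs and 132 thinned, against 393. Of the 103 and 393 genes, 53 and 38 were still past 2-fold without mixed cells. Between genotypes, higher genes numbered 46 on the random 50%, 271 with at least 20 UMIs, 19 with 200 and 1092 with 1, against 83, and lower genes 582, 26 and 791 with these minimums, against 265. The mean arterial median (1.01) was 0.63 without mixed cells, 0.69 with a gate of 5 UMIs and 1.39 with 4 markers. The capillary median (0.61) was 0.34 with a gate of 5 UMIs, 0.95 with 2 markers, 0.99 on the random 50% and 0.84 in male cells. The sprouting median (0.75) was 0.25 thinned, and the venous median (-0.55) was -0.15 with 2 markers and -0.99 thinned. The Hh target ratio (0.51) was -1.49 thinned. *Lyz2* (2.29) reversed to -3.15 with 0 UMIs of the 3 genes, -2.76 with 4 markers, -1.19 thinned and -0.61 without mixed cells, and *Cxcl2* (1.57) to -1.68 with 0 UMIs of the 3 genes. In the *SM22-SmoM2* library 46 of 49 *Lyz2* and 90 of 132 *Cxcl2* UMIs lay in 1 cell. The cause of these changes was not tested.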

Other observations

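For capillary-arterial over other endothelial cells, 16 antigen presentation and interferon genes had medians of 0.56 and 0.95. Without mixed cells the medians were 0.40 and 0.38. The general endothelial genes had 0.54 and 0.71, and 0.29 and 0.19 without mixed cells. Of the 16 genes *Ly6c1* was 2-fold higher in both libraries, beside 1.05% of all genes. *Irf7*, an interferon-induced factor, stood at 655 against 303 CPM and 449 against 232 CPM, and *B2m*, the light chain of MHC class I, had log2 ratios of 0.48 and 0.81. The MHC class II chaperone *Cd74* lay mostly in single cells, with 585 of 970 control and 223 of 233 *SM22-SmoM2* UMIs in 1 cell each.

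Basement membrane genes had medians of 0.52 and 0.50, and 1 of 14, the laminin gene *Lama5*, was past 2-fold in both libraries. Of 15 VEGF and angiopoietin genes *Flt4* was higher and *Vegfa* lower, beside 1.05% and 4.02% of all genes. Of 14 BMP and TGF-beta genes none was past 2-fold. Without mixed cells *Lama5*, *Flt4* and *Vegfa* were not past 2-fold in both libraries, and *Angpt2* and *Bmp4* were 2-fold lower. Immediate early genes, which cell dissociation can induce, had medians of -0.16 and -0.23, with 0 of 12 past 2-fold in either direction, and between genotypes also 0 of 12.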
